A study of Mus musculus with 8 samples.

Results

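The expression of 9 genes that form, stabilize and guide blood and lymphatic vessels was examined in dystrophic muscle. They are the 5 vascular endothelial growth factor (VEGF) ligand genes *Vegfa*, *Vegfb*, *Vegfc*, *Vegfd* and *Pgf*, the angiopoietin genes *Angpt1* and *Angpt2*, and the genes of the peptide apelin, *Apln*, and of its receptor, *Aplnr*. They were taken by symbol from a table of 55401 genes, and each symbol matched 1 gene. Bulk RNA-seq was available for whole tibialis anterior (TA) muscles, 4 from *mdx5cv* mice, a model of Duchenne muscular dystrophy (DMD) on the B6 background, and 4 from wild-type (WT) C57/Bl6 mice. All mice were male and 6 mo old, and the labels give no transgene and no treatment. The libraries were made from total RNA with a stranded kit. The labels number the samples of each group but do not state that each muscle came from a separate mouse, so the p-values measure the spread between these samples, which may be technical. Because whole muscles were sequenced, fewer cells of a type and less RNA per cell cannot be told apart.

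VEGF-A is the main growth and survival signal of blood vessel endothelium and acts through the receptors VEGFR1 (*Flt1*) and VEGFR2 (*Kdr*), and in muscle it is made mostly by the fibers themselves. VEGF-B and placental growth factor bind VEGFR1, whereas VEGF-C and VEGF-D act on VEGFR3 (*Flt4*), the receptor of lymphatic growth. Angiopoietin 1 activates the endothelial receptor TIE2 (*Tek*) and keeps vessels quiet, and angiopoietin 2 opposes it in many settings. Apelin signals through a receptor carried by endothelial cells and is known from sprouting vessels and as a peptide released by muscle.

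The values are normalized read counts, which are the reads of a gene divided by a size factor for the muscle. Recovered reads per muscle ranged from 13175524 to 14921057, and the size factors were 0.873 to 0.944 in WT and 1.06 to 1.25 in *mdx5cv* muscles. *Dmd*, the gene mutated in the model, averaged 6954 normalized counts in WT and 3964 in *mdx5cv* muscles (log2 fold change −0.81, limma adjusted p = 0.000177). Differences were tested with limma over the 13677 genes that averaged 10 or more normalized counts, and a gene was called at an adjusted p under 0.05. Of these genes 40.9% were called, 2854 higher and 2743 lower in *mdx5cv* muscle. When every muscle was instead scaled to the same total of reads, 5444 genes were called higher and 820 lower, and the median over all genes moved from 0.00 to 0.36.

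Of the 9 factors, 8 passed the filter and 3 were called. *Aplnr* was higher in *mdx5cv* muscle, and *Vegfa* and *Angpt1* were lower. This share lies close to the 40.9% of all genes tested that were called in either direction, against 20.9% called higher and 20.1% called lower. The groups did not overlap for *Vegfa*, *Apln* and *Aplnr*, 3 of the 9, and 40.1% of all genes tested had groups that did not overlap (20.3% higher and 19.8% lower in *mdx5cv* muscle). No factor reached an absolute log2 fold change of 1, and 13.6% of the genes tested were called and passed this minimum. The study's methods set it beside the adjusted p with DESeq2, for RNA-seq of *mir-486* knockout muscle. Here it was applied to limma fold changes of log2(normalized count + 1). With equal totals the calls were 2 higher (*Aplnr* and *Apln*) and 0 lower, and *Aplnr* passed that minimum with a log2 fold change of 1.17. The factors had a median log2 fold change of −0.34 over the 8 tested, and the median over all genes tested was 0.00.

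**Figure D1:**
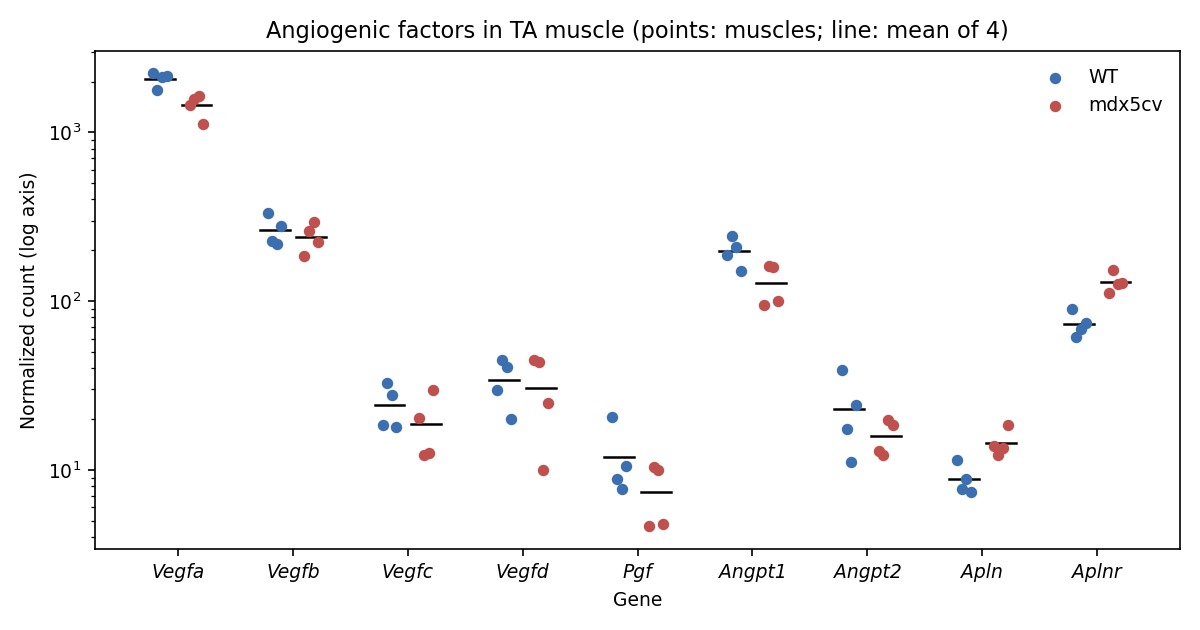
Normalized read counts (log axis) of the 9 factors along the horizontal axis, with 1 point per muscle for 4 WT (blue) and 4 *mdx5cv* (red) muscles and lines for the group means. The groups are separate for *Vegfa*, with *mdx5cv* muscles up to 1648 and WT muscles from 1776, and for *Apln* and *Aplnr*, with all *mdx5cv* muscles above the WT muscles, and they overlap for the other 6 genes.

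The sequences just before the transcription start are shown for 3 of the ligand genes: the most abundant ligand, which was lower in *mdx5cv* muscle, the next most abundant, which was not called, and the apelin gene, whose 2 groups were separate. RefSeq windows on GRCm38.p6 were found for 6 of the 9 genes, with 2 starts for *Vegfa*, of which the one nearest the annotated start of the gene is shown. The lines hold the 250 bases upstream of the start, written 5′ to 3′ on the strand of the gene, at chr17:46032378-46032627 (minus strand) for *Vegfa*, chr19:6987652-6987901 (minus strand) for *Vegfb* and chrX:48034854-48035103 (minus strand) for *Apln*. Capitals mark GC boxes (GGGCGG) and the core of the hypoxia response element (ACGTG or GCGTG), searched on either strand.
Vegfa: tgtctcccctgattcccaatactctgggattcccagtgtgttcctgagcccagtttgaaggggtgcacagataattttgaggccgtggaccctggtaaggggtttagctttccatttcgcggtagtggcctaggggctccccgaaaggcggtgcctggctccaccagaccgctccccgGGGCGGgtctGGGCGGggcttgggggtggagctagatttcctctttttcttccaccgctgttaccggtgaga
Vegfb: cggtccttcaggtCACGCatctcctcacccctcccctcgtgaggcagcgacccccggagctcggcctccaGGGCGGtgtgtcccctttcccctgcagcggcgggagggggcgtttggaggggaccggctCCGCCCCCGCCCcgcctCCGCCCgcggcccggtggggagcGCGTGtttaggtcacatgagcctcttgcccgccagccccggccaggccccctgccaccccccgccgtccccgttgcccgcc
Apln: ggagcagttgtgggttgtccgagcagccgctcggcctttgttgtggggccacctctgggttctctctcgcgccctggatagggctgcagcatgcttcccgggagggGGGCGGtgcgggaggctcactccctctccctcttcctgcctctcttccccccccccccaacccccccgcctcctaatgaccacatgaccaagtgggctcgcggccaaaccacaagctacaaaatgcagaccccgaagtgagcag
The *Vegfa* window held 2 GC boxes and the *Apln* window 1, and neither held a hypoxia core. The *Vegfb* window held 4 GC boxes, some side by side, and 2 GCGTG cores. Among all 32851 windows of the same length, 32.7% held a GC box and 38.6% held a hypoxia core of either form. A match of letters does not show that a factor binds, and no match speaks only for this window.

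*Vegfa* (ENSMUSG00000023951.18, chr17:46016993-46032369, minus strand) had the highest level per kb of exon of the 9 genes. The WT muscles had 2236, 1776, 2125 and 2144 normalized counts, and the *mdx5cv* muscles had 1456, 1577, 1648 and 1126. Every *mdx5cv* muscle was below every WT muscle, and the 4th *mdx5cv* muscle was the lowest. The means were 2070 ± 202 in WT and 1452 ± 231 in *mdx5cv* muscles (SD, n = 4 per group), so the dystrophic muscles held 70.1% of the WT level. The log2 fold change was −0.52 (SE 0.13, 95% CI −0.80 to −0.24, limma adjusted p = 0.00576). With equal totals the value was −0.16 and was no longer called (limma adjusted p = 0.267), while the median of all genes stood at 0.36 under that scaling.

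*Vegfb* (chr19:6982473-6987651, minus strand), a ligand of VEGFR1 linked to fatty acid handling and cell survival, had 332, 226, 217 and 279 normalized counts in WT and 184, 258, 294 and 225 in *mdx5cv* muscles. The groups overlapped, and only the 1st *mdx5cv* muscle lay below all WT muscles. The log2 fold change was −0.13 (95% CI −0.49 to 0.23, limma adjusted p = 0.559) and turned to 0.23 with equal totals.

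The lymphatic ligands and *Pgf* were present at low counts. *Vegfc* (chr8:54077606-54187096, plus strand) had 18.3, 32.9, 27.6 and 18.01 normalized counts in WT and 20.4, 12.3, 12.6 and 29.6 in *mdx5cv* muscles. Its groups overlapped, and the log2 fold change was −0.40 with a 95% CI of −1.10 to 0.30 (limma adjusted p = 0.347). *Vegfd* (chrX:164373378-164402650, plus strand) had 29.8, 45.0, 40.9 and 20.1 in WT and 44.5, 43.4, 9.91 and 24.8 in *mdx5cv* muscles. The 3rd *mdx5cv* muscle was the lowest of all 8, the log2 fold change was −0.29 (95% CI −1.17 to 0.60, limma adjusted p = 0.610), and it was 0.16 without that muscle and 0.060 with equal totals. *Pgf* (chr12:85166635-85177790, minus strand), the placental growth factor gene, averaged 9.68 normalized counts over the 8 muscles and was under the filter. It had 20.6, 8.78, 7.74 and 10.6 normalized counts in WT and 4.63, 10.4, 9.91 and 4.79 in *mdx5cv* muscles. The groups overlapped, and the 1st WT muscle was the highest. At 5 to 18 reads per muscle these data have little power for *Pgf*: the summed reads were 43 in WT (95% exact Poisson interval 31.1 to 57.9, counting error only) and 33 in *mdx5cv* muscles (22.7 to 46.3). These sums are reads before division by the size factors.

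*Angpt1* (chr15:42424723-42676977, minus strand), the TIE2 agonist, was lower in *mdx5cv* muscle, but its groups overlapped. The WT muscles had 188, 245, 210 and 151 normalized counts, and the *mdx5cv* muscles had 94.5, 161, 158 and 99.9. The 1st and 4th *mdx5cv* muscles were below all WT muscles, and the other two lay within the WT range. The means were 199 ± 39.1 and 129 ± 36.3 (SD, n = 4 per group), 64.7% of WT, with a log2 fold change of −0.65 (SE 0.20, 95% CI −1.08 to −0.21, limma adjusted p = 0.0207). The call was lost when the 2nd WT (limma adjusted p = 0.0582), 3rd WT (0.0563), 1st *mdx5cv* (0.0687) or 4th *mdx5cv* muscle (0.0615) was left out, and with equal totals (log2 fold change −0.29, limma adjusted p = 0.200). Exons of *Angpt1* overlap those of the antisense gene *Gm17473*, which had 1.15 to 9.95 normalized counts in WT and 1.89 to 6.49 in *mdx5cv* muscles, and whether the counting used the strand is not given in the sources used here.

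*Angpt2* (chr8:18690263-18741562, minus strand), the context-dependent partner of *Angpt1*, lies within *Mcph1* on the other strand without shared exons. It had 39.0, 17.6, 11.1 and 24.4 normalized counts in WT and 12.97, 12.3, 19.8 and 18.4 in *mdx5cv* muscles. All *mdx5cv* values were within the WT range, and the log2 fold change was −0.40 (95% CI −1.16 to 0.36, limma adjusted p = 0.390). The log2 ratio of *Angpt2* to *Angpt1*, taken within each muscle after adding 1 to both normalized counts, was −4.13 to −2.24 in WT and −3.61 to −2.38 in *mdx5cv* muscles. The difference of the means was 0.25 (exact permutation test, two-sided, p = 0.714, adjusted p = 0.80 over 3 ratios, with 0.0286 the smallest p that 4 against 4 can give).

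The apelin ligand and receptor genes had positive log2 fold changes under every scaling. *Aplnr* (chr2:85136225-85139923, plus strand), which encodes the apelin receptor, had 89.4, 61.4, 68.6 and 74.2 normalized counts in WT and 111, 152, 126 and 128 in *mdx5cv* muscles. Every *mdx5cv* muscle was above every WT muscle. The means were 73.4 ± 11.9 and 129 ± 16.8 (SD, n = 4 per group), 1.76-fold higher, with a log2 fold change of 0.81 (SE 0.16, 95% CI 0.48 to 1.15, limma adjusted p = 0.00116). It was called in every alternative test and with each muscle left out, with adjusted p between 6.87e-05 and 0.00500 (limma, edgeR or DESeq2), and lost its call only to the fold minimum.

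*Apln* (chrX:48025146-48034853, minus strand), the ligand, had 11.5, 7.68, 8.85 and 7.42 normalized counts in WT and 13.9, 12.3, 13.5 and 18.4 in *mdx5cv* muscles. The groups were again separate, but the WT mean of 8.85 ± 1.85 was under the filter of 10, so the gene was tested only because of the *mdx5cv* mean of 14.5 ± 2.67 (SD, n = 4 per group). The log2 fold change was 0.66 (SE 0.30, 95% CI 0.00055 to 1.32) and was not called (limma adjusted p = 0.101). It was called with equal totals (0.99, limma adjusted p = 0.0255) and without a variance trend (limma adjusted p = 0.0149), and not by edgeR (adjusted p = 0.0737) or DESeq2 (adjusted p = 0.176). These values rest on 7 to 10 reads per WT muscle and 13 to 23 per *mdx5cv* muscle. The summed reads were 32 in WT (95% exact Poisson interval 21.9 to 45.2, counting error only) and 66 in *mdx5cv* muscles (51.0 to 84.0). These sums are reads before division by the size factors, which were larger in *mdx5cv* muscles. The intervals of the groups are therefore not on the same scale and cannot be compared directly. *Apela*, which encodes the other peptide ligand of the receptor, had 0 reads in every muscle. The log2 ratio of *Apln* to *Aplnr* was −3.16 to −2.82 in WT and −3.53 to −2.73 in *mdx5cv* muscles, a difference of −0.15 (exact permutation test, two-sided, p = 0.543, adjusted p = 0.80 over 3 ratios). The third ratio, *Pgf* to *Vegfa*, was −7.93 to −6.69 in WT and −8.02 to −7.12 in *mdx5cv* muscles, a difference of −0.08 (exact permutation test, two-sided, p = 0.80, adjusted p = 0.80).

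**Figure D2:**
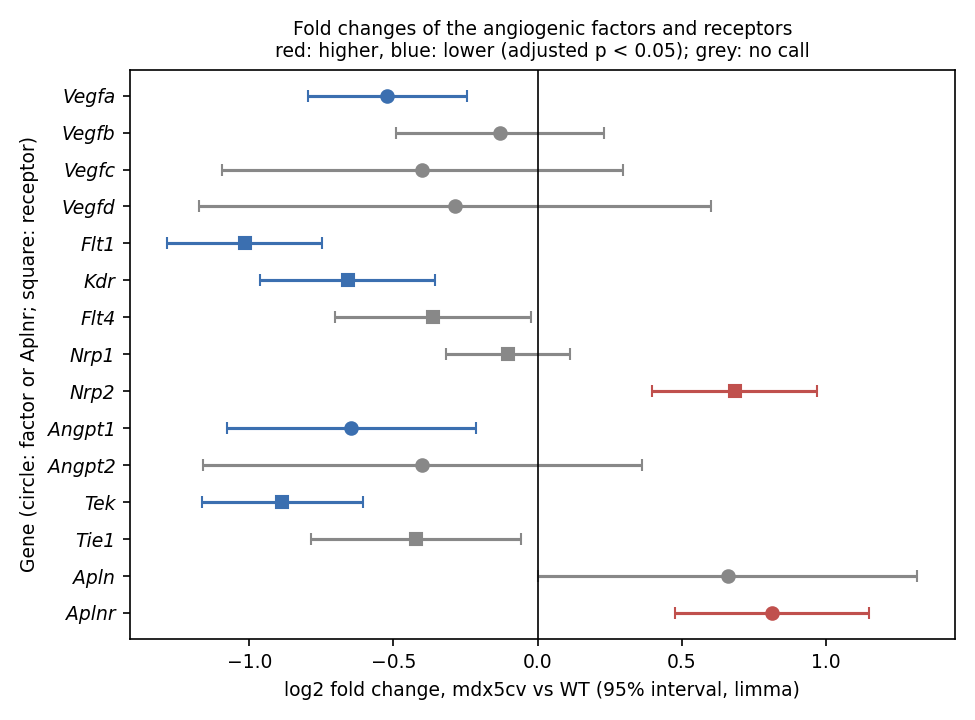
Log2 fold changes (*mdx5cv* against WT, on log2 of the normalized count + 1) of the 8 factors tested (circles) and of 7 VEGF and TIE receptor genes (squares), with 95% confidence intervals from limma, red for genes called higher and blue for lower. *Aplnr* at 0.81 is the factor called higher, *Vegfa* at −0.52 and *Angpt1* at −0.65 are those called lower, and the receptors range from −1.02 for *Flt1* to 0.68 for *Nrp2*.

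Levels were compared between the factors as normalized counts per kb of exon. In WT muscle the level of *Vegfa* was 483 ± 47.2 per kb, that of *Vegfb* 164 ± 33.3, that of *Angpt1* 38.1 ± 7.51 and that of *Aplnr* 19.8 ± 3.21 (SD, n = 4). *Vegfd* at 14.1 ± 4.66, *Vegfc* at 9.89 ± 2.99, *Angpt2* at 6.23 ± 3.24, *Pgf* at 4.11 ± 2.04 and *Apln* at 2.81 ± 0.587 per kb followed. The ranges of neighbors in this order overlapped from *Aplnr* downward, and those of *Vegfa*, *Vegfb*, *Angpt1* and *Aplnr* did not overlap with each other. In *mdx5cv* muscle *Aplnr* at 34.9 ± 4.55 per kb came before *Angpt1* at 24.7 ± 6.97 with overlapping ranges, and *Apln* at 4.61 ± 0.848 came before *Angpt2* at 4.30 ± 1.03 and *Pgf* at 2.56 ± 1.08. *Vegfa* made up 71.5% of the summed VEGF ligand level per kb in WT and 66.3% in *mdx5cv* muscle, and *Vegfb* made up 24.3% and 29.3%.

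Among the 5 VEGF receptor and co-receptor genes, *Flt1* and *Kdr* were lower, *Nrp2* was higher, and *Flt4* and *Nrp1* were not called. *Flt1*, the VEGFR1 gene, had 1088, 1089, 1203 and 1024 normalized counts in WT and 483, 682, 565 and 467 in *mdx5cv* muscles, with no overlap. Its log2 fold change of −1.02 was the largest of the receptors (limma adjusted p = 4.25e-05), and it passed the fold minimum, but not with equal totals (−0.66, limma adjusted p = 0.000397). *Kdr*, the VEGFR2 gene, averaged 712 ± 137 in WT and 447 ± 61.1 in *mdx5cv* muscles (log2 fold change −0.66, limma adjusted p = 0.00239) and was not called with equal totals (−0.30, limma adjusted p = 0.104). *Nrp2*, a co-receptor for VEGF-C and semaphorins, averaged 233 ± 25.5 and 377 ± 63.8 (log2 fold change 0.68, limma adjusted p = 0.00127). *Flt4* had a log2 fold change of −0.36 (limma adjusted p = 0.0810) and *Nrp1* of −0.10 (limma adjusted p = 0.429), the latter changing sign with equal totals. The list had a median log2 fold change of −0.36, against 0.00 over all genes tested, of which 40.9% were called.

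The TIE receptor genes and genes of their partners had 1 call up (*Svep1*) and 2 down (*Tek* and *Ptprb*) among the 4 tested, at a median log2 fold change of −0.56. The share called over all genes tested was 40.9%. *Tek*, the TIE2 gene, averaged 360 ± 49.0 normalized counts in WT and 194 ± 21.5 in *mdx5cv* muscles (log2 fold change −0.88, limma adjusted p = 0.000164). *Ptprb*, an endothelial phosphatase that acts on TIE2, was lower by a similar size (−0.70, limma adjusted p = 0.000176). *Tie1*, the co-receptor, had a value of −0.42 and was not called (limma adjusted p = 0.0605), but was with centering on the median (limma adjusted p = 0.0260). With edgeR, DESeq2 or the 2nd WT muscle left out the list also had 3 lower calls. *Svep1*, a matrix protein that binds TIE1, averaged 362 ± 63.6 and 595 ± 84.6 and was higher (log2 fold change 0.72, limma adjusted p = 0.00130). *Angpt4* was under the filter. The calls were the same in number with equal totals.

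*Vegfc* itself was not called. Of 6 genes listed for the processing of VEGF-C 4 were higher and none was lower, with a median log2 fold change of 0.69. Of all genes tested 20.9% were called higher and 20.1% lower. Only RNA was measured, so the processing of VEGF-C or of any other protein by these gene products was not tested. *Adamts14*, a protease of the family that cleaves pro-VEGF-C, rose from a mean of 12.6 to 128 normalized counts (log2 fold change 3.21, limma adjusted p = 8.34e-06). *Ccbe1*, the cofactor of this cleavage, rose from 35.01 ± 9.33 to 101 ± 22.8 (log2 fold change 1.51, limma adjusted p = 0.000150). *Adamts3*, the main protease, had a log2 fold change of 0.82 (limma adjusted p = 0.0492, and 0.0689 with centering on the median), and *Furin* one of 0.56 (limma adjusted p = 0.0125). *Pcsk5* (0.13) and *Pcsk7* (0.26) were not called. The list had 3 calls rather than 4 in several alternatives, among them the pseudocount of 0.1, no filter and 6 of the 8 fits with a muscle left out, and 5 with equal totals. Of 6 lymphatic endothelial markers 3 were higher and none was lower, with a median log2 fold change of 0.67. They were *Prox1*, the lymphatic master regulator (0.96, limma adjusted p = 0.00940), *Ccl21a* (1.261, limma adjusted p = 0.0263) and *Pdpn* (2.001, limma adjusted p = 1.26e-05), which fibroblasts also express. *Ccl21a* had a WT mean of 8.46, under the filter of 10, and was tested only because of its *mdx5cv* mean of 19.8. *Lyve1* (−0.20, limma adjusted p = 0.633, positive with equal totals), *Mmrn1* (0.37, limma adjusted p = 0.367) and *Reln* (−0.44, limma adjusted p = 0.0668) were not called. *Reln* was called lower with centering on the median (limma adjusted p = 0.0344). The lymphatic list had 2 higher calls rather than 3 in several fits with a muscle left out and with at least 10 in every muscle.

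The regulators of hypoxia signaling, which controls *Vegfa* among many genes, were mixed. Their list also held the coactivator gene *Ppargc1a* and its partner *Esrra*, and the counts include both. Of 10 tested, 1 was higher and 4 were lower, with a median log2 fold change of −0.02, and with equal totals 4 were higher and none was lower. *Hif1a*, the gene of the oxygen-regulated transcription factor subunit HIF-1α, was not called (0.29, limma adjusted p = 0.0964). These are RNA levels, and the HIF proteins were not measured. *Epas1*, which encodes the related HIF-2α, was lower (−0.59, limma adjusted p = 0.00140), as was the oxygen sensor *Egln1* (−0.62, limma adjusted p = 0.00490), whereas *Egln3* was higher (0.72, limma adjusted p = 0.00268). *Ppargc1a*, the coactivator that raises *Vegfa* in exercised muscle, had a value of −0.17 (limma adjusted p = 0.291) that was positive with equal totals, and its partner *Esrra* was lower (−0.52, limma adjusted p = 0.0135). Other hypoxia targets had 1 call up and 4 down among 9 tested, with a median of −0.44. *Pdk1*, which encodes a kinase that inhibits pyruvate dehydrogenase (−0.86, limma adjusted p = 0.000738), and the glycolytic gene *Pgk1* (−0.63, limma adjusted p = 0.00270) were lower, *Ankrd37* was higher (0.96, limma adjusted p = 0.0225) and *Slc2a1* was not called (0.01, limma adjusted p = 0.961, negative with centering on the median). With equal totals 2 of these targets were higher and 1 was lower, and without the 3rd *mdx5cv* muscle none was higher and 3 were lower.

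Genes for inhibitors of angiogenesis were called in both directions, 5 higher and 2 lower of 8, with a median log2 fold change of 0.80. *Thbs1*, the thrombospondin that restrains endothelial growth, rose from a mean of 123 to 428 normalized counts (log2 fold change 1.73, limma adjusted p = 0.000132). *Vash2*, which despite its place in the list is known to promote angiogenesis, had a log2 fold change of 1.98 (limma adjusted p = 0.000353), and *Col18a1*, the source of endostatin, one of 1.39 (limma adjusted p = 0.000563). *Timp3*, which blocks the binding of VEGF-A to VEGFR2, was lower (−0.89, limma adjusted p = 2.82e-05). *Vash1* was not called (−0.04, limma adjusted p = 0.883, positive with equal totals).

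**Figure D3:**
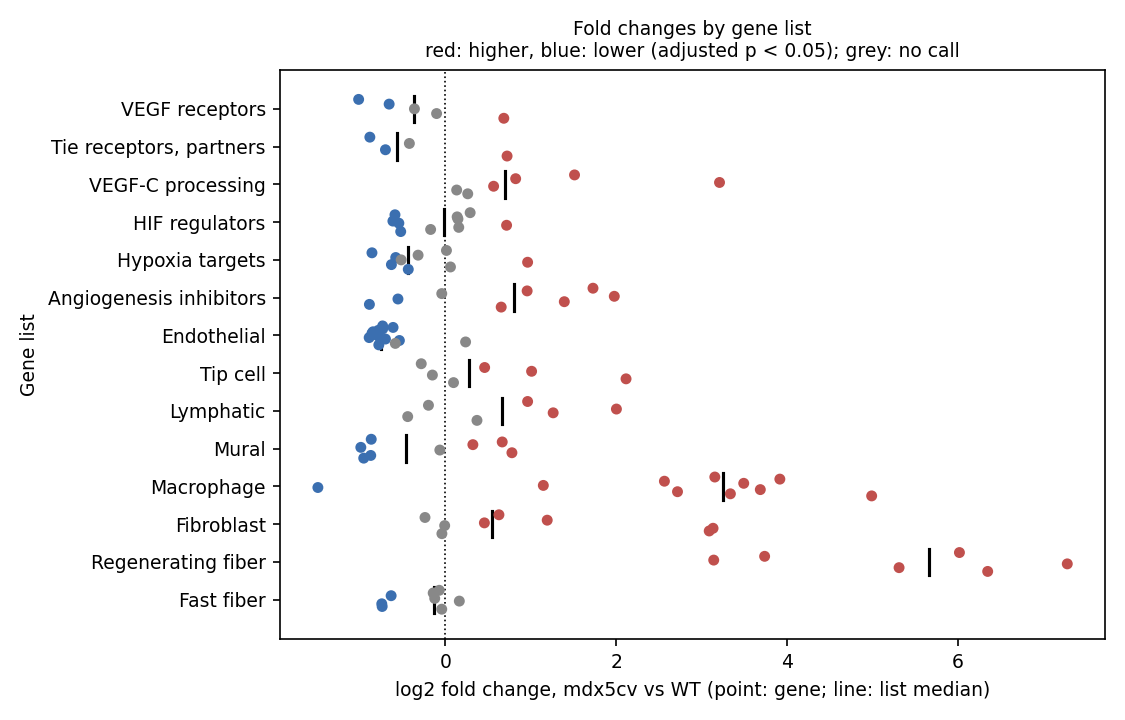
Log2 fold changes (*mdx5cv* against WT) of the tested genes of each list, 1 point per gene, with the list median as a line, red for genes called higher, blue for lower and grey for no call. The endothelial list lies below 0 for 13 of 14 genes with a median of −0.76, the VEGF-C processing and regenerating fiber genes all lie above 0 with medians of 0.69 and 5.66, and the macrophage list has a median of 3.24.

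Markers of blood vessel endothelium, which carries many of these receptors, were lower, as were *Vegfa*, *Angpt1*, *Flt1*, *Kdr* and *Tek*, whereas *Aplnr* and *Nrp2* were higher. Of 14 such genes, *Ptprb* among them, 12 were lower and none was higher (median log2 fold change −0.76), and their summed normalized count was 5334 to 5784 in WT and 3051 to 3724 in *mdx5cv* muscles. *Pecam1* averaged 725 ± 44.8 in WT and 436 ± 44.6 in *mdx5cv* muscles (log2 fold change −0.73, limma adjusted p = 0.000138), *Vwf* had a value of −0.86 (limma adjusted p = 0.000306), and *Sox18* was not called (0.24, limma adjusted p = 0.613). With equal totals 7 of the 14 were lower and none was higher. The mean log2 value of these 14 genes itself differed by −0.67 between *mdx5cv* and WT muscles. A gene with equal counts in both groups therefore lies higher in *mdx5cv* muscle relative to this mean. Relative to the mean log2 value of these 14 genes in the same muscle, described here without a test, *Vegfa* differed between the groups by 0.15 and *Angpt1* by 0.03, both with overlap. Among the receptors this difference was 0.015 for *Kdr*, −0.34 for *Flt1*, −0.21 for *Tek*, 0.25 for *Tie1* and 0.31 for *Flt4*, all with overlap, and 0.57 for *Nrp1* without overlap. On the same relative scale *Aplnr* was −1.75 to −1.35 in WT and −0.24 to 0.09 in *mdx5cv* muscles, and *Apln* was −4.70 to −4.21 and −3.44 to −2.71. *Vegfb* was 0.03 to 0.53 and 0.54 to 0.97 relative to these genes, although its normalized counts overlapped and it was not called. How many of all genes are separate on this relative scale was not counted. The part of the endothelial markers in the results for the 9 factors was not tested.

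**Figure D4:**
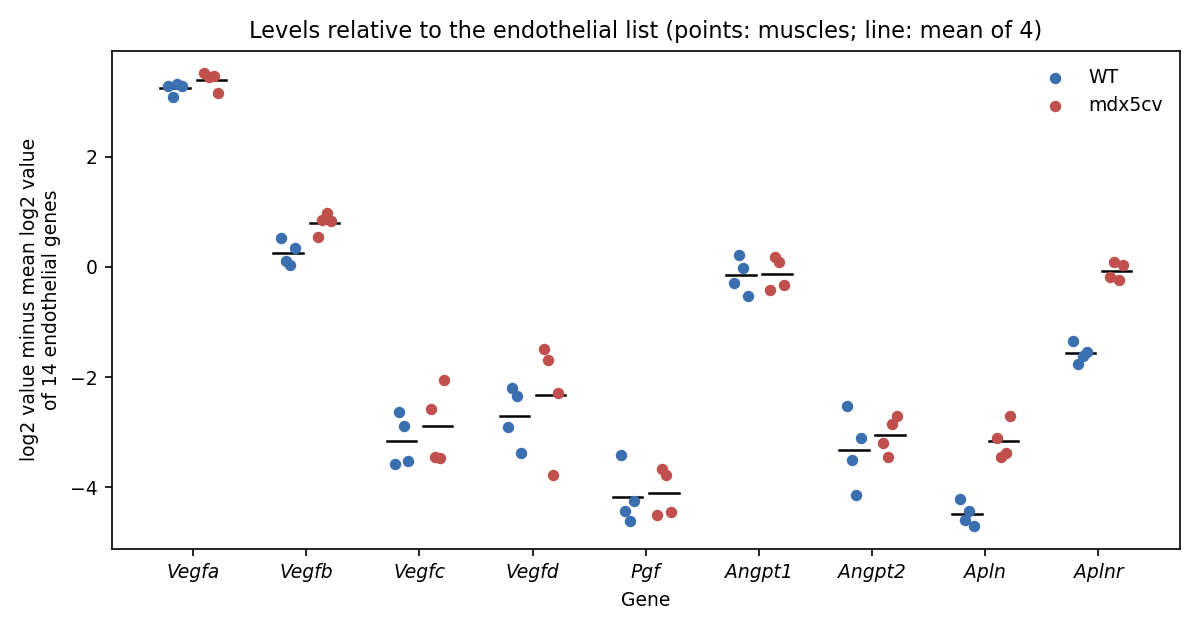
Log2 value of each of the 9 factors minus the mean log2 value of 14 endothelial genes in the same muscle, 1 point per muscle (WT blue, *mdx5cv* red) and lines for the group means. *Aplnr*, *Apln* and *Vegfb* are separate between the groups, with the *mdx5cv* muscles above the WT muscles, and the other 6 genes overlap. The endothelial mean was itself lower in *mdx5cv* muscles (difference −0.67), which raises every gene on this scale, and the normalized counts of *Vegfb* overlap.

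Sprouting endothelial tip cells, which express *Apln*, were examined through 8 markers, of which 6 were tested. *Cxcr4* (2.11, limma adjusted p = 1.15e-05), *Nid2* (1.01, limma adjusted p = 7.82e-05) and *Unc5b* (0.46, limma adjusted p = 0.0441) were higher, none was lower, and *Dll4* was not called (−0.28, limma adjusted p = 0.278, positive with equal totals). *Plvap* (−0.15) and *Pdgfb* (0.09) were not called either, and each changed sign under another scaling. Of all genes tested 40.9% were called. The list had 2 calls with no filter, without a variance trend, with centering on the median (*Unc5b* limma adjusted p = 0.0983) and in most fits with a muscle left out. It had 4 with equal totals. *Cxcr4* is also a gene of leukocytes and *Nid2* a basement membrane gene. *Esm1*, a gene widely used to mark tip cells, was under the filter with means of 8.28 and 7.64 normalized counts.

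Other cell types also differed between the groups. The 10 macrophage markers summed to 642 to 979 normalized counts in WT and 4841 to 11950 in *mdx5cv* muscles, with 9 higher and *Cd163* lower. Of 8 fibroblast markers 5 were higher and none was lower (median log2 fold change 0.54). The collagen genes *Col1a1* and *Col3a1* averaged 780 and 1485 normalized counts in WT and 6996 and 12659 in *mdx5cv* muscles. The other 6 markers summed to 2840 to 6461 and 3716 to 4838, which overlap. Most of that sum was *Dcn*, which averaged 3090 in WT and 2488 in *mdx5cv* muscles. *Dcn*, *Pi16* and *Cd34* were not called. *Pdgfra* (0.63, limma adjusted p = 0.000620), *Lum* (1.19, limma adjusted p = 0.00102) and *Dpt* (0.46, limma adjusted p = 0.0342) were higher. The 6 genes of regenerating fibers were higher and summed to 118 to 143 in WT and 2175 to 8502 in *mdx5cv* muscles. For 3 of them, *Mymk*, *Mymx* and *Chrng*, the WT mean was 0 to 0.265 and the filter was passed only through the *mdx5cv* muscles, as it was for *Itgam* among the macrophage markers. The 8 genes of the fast fiber list were abundant in both groups, and 3 of them, *Actn3*, *Ckm* and *Pygm*, were lower. With equal totals 1 was higher and 2 were lower, and *Actn3* was not called (limma adjusted p = 0.111). The list summed to 1.02e+06 to 1.21e+06 in WT muscles. The 4th *mdx5cv* muscle, at 729956, lay below that range, and the other *mdx5cv* muscles lay within it. The part of these cells in the values of the 9 factors was not tested.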

How the data were processed

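The authors deposited 1 table of normalized counts per gene (a signal, reads divided by a size factor for each muscle) for 4 WT and 4 *mdx5cv* TA muscles. The submitters' processing notes name Trim Galore 0.6.4, STAR 2.6.0c, SAMtools 1.9, featureCounts and DESeq2 1.26.0 with R 3.6.2 and the mm10 build, and the labels describe Trizol extraction and a stranded total RNA kit. Whole reads (tolerance 0.01) were recovered for 100% of the values, and median-of-ratios factors recomputed from them matched the size factors. Depth was 13175524 to 14921057 reads per muscle, which sets the counting error. Reads of replicates differed by more than sampling noise (lowest chi-square per degree of freedom 9.55).

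Groups and replicate numbers were taken from the titles. Values were tested with limma 3.58.1 (lmFit, eBayes with a variance trend, two-sided) in R 4.3.3 on log2(normalized count + 1), over the 13677 genes with a mean of at least 10, with Benjamini-Hochberg adjustment over these genes. Fold changes are on this scale, which understates the change of low genes. The members and gene lists were chosen with earlier results of these data known, so lists are described by counts and medians without a test. The text names the 9 factors, 2 to 4 or more genes per list (the largest changes and the defining genes), *Dmd*, and, for each called factor, the 3 genes with a mean of at least 100 and the smallest root mean square difference in log2 pattern. Genes beyond 4 in a list were named, and the fibroblast and mural lists were summed without their leading genes, after their values were seen.

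Alternatives were pseudocounts of 0.1 and 10, no filter, at least 10 in every muscle, TMM factors, equal totals, no variance trend, centering on the median, a block for the replicate number, each muscle left out, edgeR 4.0.16 and DESeq2 1.42.0 on recovered reads, and a fold minimum of 1 on the absolute log2 scale. The scripts were tested on simulated data. Ratios were compared with exact permutation tests in Python 3.11.15 (scipy 1.17.1, numpy 2.4.6, pandas 2.3.3, matplotlib 3.10.9). Gene IDs were matched to GENCODE M21 (GRCm38) for coordinates and exon lengths, and promoter windows are from RefSeq.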

Additional observations from a re-analysis of the deposited data

Results flagged for a closer look

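The log2 ratio of *Apln* to *Aplnr* in the 4th WT muscle was −3.16, farther from the other 3 WT muscles (−2.86 to −2.82) than Dixon's 95% critical value for 4 samples allows. It rests on 7 reads of *Apln* in that muscle. Of 24 groups of 4 muscles examined in this way this was the only one past the critical value, and chance gives about 1.2.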

How the results depend on the processing

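*Aplnr* kept its direction and call under all alternative tests. With the fold minimum of 1, 1861 genes were called, 0 of the factors (*Vegfa* −0.52, *Angpt1* −0.65, *Aplnr* 0.81), and by list 1 VEGF receptor, 0 TIE receptors or partners, 2 VEGF-C processing genes, 0 hypoxia regulators, 0 hypoxia targets, 3 inhibitors, 0 endothelial, 0 mural, 3 fibroblast and 0 fast fiber genes. With at least 10 in every muscle, where fewer genes were tested, 2 VEGF-C processing and 3 regenerating fiber genes were called, and with no filter 1 fast fiber gene. Equal totals gave 6264 calls in all, 3 hypoxia targets, 7 endothelial genes, −0.16 for *Vegfa*, 0.23 for *Vegfb*, 0.060 for *Vegfd*, −0.29 for *Angpt1* and 0.99 for *Apln*. Without a variance trend *Apln* was called (0.66). With a pseudocount of 10 the ratio of *Apln* to *Aplnr* differed by −0.36 (exact permutation p = 0.0286 before adjustment, the smallest possible) and that of *Pgf* to *Vegfa* by 0.20. The added 10 is of the size of the normalized counts of *Apln* (7.42 to 18.4) and *Pgf* (4.63 to 20.6). It therefore shrinks the part of these 2 genes in the ratios, and these 2 values do not show a shift of the ratios. The cause of the other changes was not tested.

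With each muscle left out, the calls ranged from 4719 to 5478 genes, 2 to 3 factors and 3 to 5 hypoxia targets. The log2 fold changes were −0.59 to −0.40 for *Vegfa*, −0.23 to −0.012 for *Vegfb*, −0.64 to −0.24 for *Vegfc*, −0.69 to −0.11 for *Angpt2*, −0.53 to 0.16 for *Vegfd*, −0.77 to −0.51 for *Angpt1* and 0.55 to 0.78 for *Apln*. The ratio differences were −0.074 to 0.56 for *Angpt2* to *Angpt1*, −0.27 to −0.0043 for *Apln* to *Aplnr* and −0.25 to 0.16 for *Pgf* to *Vegfa*. With the replicate number as a block 5616 genes and the same 3 factors were called (limma adjusted p = 0.00686 for *Vegfa*, 0.00328 for *Angpt1* and 0.00351 for *Aplnr*). Correlations of same-numbered muscles were 0.0309 to 0.146 and 5 of 8 muscles correlated best with their own number. These values do not decide whether the numbers pair the muscles, and the main tests did not pair them. *Vegfd* and *Apln* had no value with at least 10 in every muscle, and *Pgf* was tested only without a filter (limma adjusted p = 0.407). *Vegfc*, *Vegfd*, *Pgf*, *Angpt2* and *Apln* rest on 5 to 48 reads per muscle.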

Other observations

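Genes of the mural cells that wrap vessels and receive endothelial signals were called in both directions. Of 8, 4 were lower and 3 higher. Their median log2 fold change was −0.47. *Rgs5* averaged 4696 normalized counts in WT and 2565 in *mdx5cv* muscles, and the other 7 genes summed to 2610 to 3228 and 2548 to 3705, which overlap. *Rgs5* (−0.87, limma adjusted p = 0.000206) and *Kcnj8* (−0.99, limma adjusted p = 0.000115), both pericyte genes, and the contractile genes *Myh11* (−0.87) and *Tagln* (−0.96) were lower. *Cspg4* (0.66), *Pdgfrb* (0.32) and *Acta2* (0.78) were higher, and fibroblasts also express *Pdgfrb*. *Pdgfrb* was near the threshold (limma adjusted p = 0.0395) and was not called with centering on the median (limma adjusted p = 0.115). The mural list had 2 higher calls rather than 3 with that centering, with no filter and without a variance trend. The same held in most fits with a muscle left out.

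Over the 8 muscles and 7640 candidate genes, the pattern closest to that of *Vegfa* was that of *Rxra*, a nuclear receptor gene (root mean square difference 0.049 on the log2 scale), followed by *Eno3*, the muscle enolase gene (0.064), and *4833439L19Rik* (0.066). The closest to *Angpt1* were *Mtfp1* (0.081), *Apol6* (0.108) and *Gbe1* (0.118). Those closest to *Aplnr* were *Vamp2* (0.069), *Bicra* (0.117) and *Ntn4* (0.151). These are the smallest of many differences between genes measured in the same libraries and are given as a description.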
